A study of Mus musculus with 11 samples.

Results

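The 8 genes described here make or control the programmed DNA breaks of meiosis and were followed through the germ cells of the adult mouse testis: Spo11, Prdm9, Mei1, Mei4, Rec114, Hormad1, Hormad2 and Trip13. They are 8 of the 20265 genes of the deposited table and were chosen by symbol, with earlier results of these data known. Of these, 7 have a row under their own symbol, and Rec114 stands under 2410076I21Rik, which RefSeq lists as a synonym of it. The cells came from the testes of 3 untreated adult Dazl-GFP reporter mice, in which green fluorescent protein marks cells that express the germ cell gene Dazl, and live GFP-positive cells were sorted into 384-well plates. SORT-seq then counted the 3′ ends of polyadenylated RNA with unique molecular identifiers (UMIs), random tags that let each molecule be counted once. Mouse 1 was processed by CEL-seq1 and mice 2 and 3 by CEL-seq2, so the protocol and mouse 1 cannot be told apart. Mouse 3 gave 1 plate sorted by a gate and 1 by index sorting, which stores the fluorescence of each cell, and the other mice were index sorted. Nothing was treated, so all comparisons are between stages within these mice, and the mouse is the replicate (n = 3).

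Meiotic recombination starts with DNA breaks made by SPO11, a relative of topoisomerases, while the chromosomes are still being built into loops along a protein axis. PRDM9, a zinc finger protein that methylates histones, marks the places where breaks form, and MEI1, MEI4 and REC114 sit on the axis and are needed for breaks to form at all. HORMAD1 and HORMAD2 coat the axes before homologous chromosomes pair along their length, and TRIP13, an ATPase, takes them off once they have paired. Breaks form in leptotene and zygotene, the early steps of meiotic prophase, and are repaired by the end of pachytene, the long step that follows.

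The start sites of a pair of members that rose when meiosis began are shown with their matches to the motifs searched. RefSeq (GRCm38.p6) had a promoter entry for 7 of the 8 members, the exception being Spo11. The windows ran from 250 bases before to 50 after each start and were searched on both strands for CNCCTCAG (the motif of STRA8, a factor induced by retinoic acid at meiotic entry), GCGGGAA (E2F), TAACNG (MYB) and CACGTG (an E-box). The 250 bases upstream of Prdm9 (chr17:15564355-15564604, minus strand) and of Hormad1 (chr3:95559427-95559676, plus strand) read as follows, 5′ to 3′, with the motifs in capitals.
Prdm9: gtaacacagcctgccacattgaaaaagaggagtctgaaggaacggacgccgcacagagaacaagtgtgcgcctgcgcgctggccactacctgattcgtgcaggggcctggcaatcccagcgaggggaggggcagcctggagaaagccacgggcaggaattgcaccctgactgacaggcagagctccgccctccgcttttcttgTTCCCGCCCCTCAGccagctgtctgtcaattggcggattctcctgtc
Hormad1: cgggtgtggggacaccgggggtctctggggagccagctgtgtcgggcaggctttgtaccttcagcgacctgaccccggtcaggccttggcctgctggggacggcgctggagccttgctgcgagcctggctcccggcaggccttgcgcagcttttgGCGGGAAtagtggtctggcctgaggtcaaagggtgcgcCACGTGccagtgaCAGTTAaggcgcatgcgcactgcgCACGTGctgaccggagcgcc
In Prdm9 the capitals join a reversed E2F motif, which begins 47 bases before the start, and a STRA8 motif, which begins 41 bases before it and overlaps the first by 1 base; a second STRA8 motif begins at position 15 after the start. In Hormad1 the capitals are an E2F motif, an E-box, a reversed MYB motif and a second E-box, which begin 95, 57, 44 and 20 bases before the start. Among all 32851 RefSeq promoter windows of that length, 7.94% held CNCCTCAG, 4.60% GCGGGAA, 23.3% TAACNG and 7.15% CACGTG. Rec114 held an E-box and an E2F motif, Hormad2 a STRA8 motif and Mei4 a MYB motif, and the windows of Mei1 and Trip13 held none of these letters. RefSeq also has another entry for Prdm9, with a window at chr17:15563282-15563581 (minus strand) that holds none of these motifs, and one for Hormad1 whose window lies 2 bases further and holds the same motifs. The RefSeq windows of Mei1 and Rec114 lie inside the longer GENCODE genes. Hormad1 held no STRA8 motif. These matches describe letters and are not binding sites, and whether they have a part in any rise was not tested.

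Cells were staged from genes of odd-numbered autosomes, leaving out the 8 members and the comparison lists below. Of 1920 wells, 1448 held at least 1000 UMIs, 10 of them were left out as rich in markers of spermatids or Sertoli cells, and 1220 cells fell into 13 stages that every mouse shared. By marker genes, stages 1 and 2 were spermatogonia-like, 4 and 5 preleptotene-like (the step just before meiotic prophase), 6 to 9 leptotene and zygotene-like and 10 to 13 pachytene-like. Stage 3, which led with cell cycle genes, received no name and entered no contrast. Summing the cells of each mouse and stage gave 39 sums of 11 to 82 cells and 120572 to 3864066 UMIs. Total RNA per cell changed strongly: relative to stage 1, UMIs per spike-in UMI (ERCC RNA added to the wells) stood at a log2 value of -1.82 ± 0.32 at stage 6, -0.05 ± 0.29 at stage 9 and 1.74 ± 0.40 at stage 13 (SD, n = 3). A level in CPM (UMIs of a gene scaled to a total of 1000000 per sum) is therefore a share of a cell's RNA and not an amount per cell. The UMIs of the X chromosome went from 7.41 ± 0.25 per 100 UMIs of even-numbered autosomes at stage 7 to 0.817 ± 0.266 at stage 9. It was the first stage under 50% of the level of stage 1, and silencing of the X is known as a feature of pachytene.

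As shares of RNA, the break genes followed each other. Between spermatogonia-like and preleptotene-like stages, Prdm9, Hormad1, Mei1, Hormad2 and Spo11 rose and Trip13 fell, which is 5 of 8 members higher and 1 lower where 21.4% of the 11600 genes tested were higher and 27.2% lower. Between preleptotene-like and leptotene and zygotene-like stages, Spo11, Hormad1 and Hormad2 rose and Mei1, Rec114, Prdm9 and Trip13 fell, 3 higher and 4 lower against 21.1% and 25.0% of all genes. Between those and pachytene-like stages, Spo11 rose and the other 7 fell, against 42.2% of all genes higher and 27.1% lower, while per spike-in RNA 5 members were higher and 1 lower there, against 86.6% and 3.34% of all genes. Per spike-in RNA the first contrast had 2 members higher and 3 lower, against 1.65% and 81.1% of all genes. With stage 9 counted as pachytene by its X chromosome, 1 member was higher and 4 lower in the third contrast, against 41.3% and 27.1% of all genes, as Hormad1 (-0.15, adjusted p 0.0709), Hormad2 (-0.47, adjusted p 0.0697) and Trip13 (-0.29, adjusted p 0.0658) no longer passed. All 8 differed between stages as a whole, as did 95.5% of the genes tested. The medians of the log2 fold change over all genes were -0.10, -0.05 and 0.20 in the 3 contrasts. These calls used edgeR's quasi-likelihood test with the mouse as a block and an adjusted p under 0.05, Benjamini-Hochberg over all genes tested, and a log2 fold change is the difference of the mean log2 levels of the stages of each class.

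**Figure D1:**
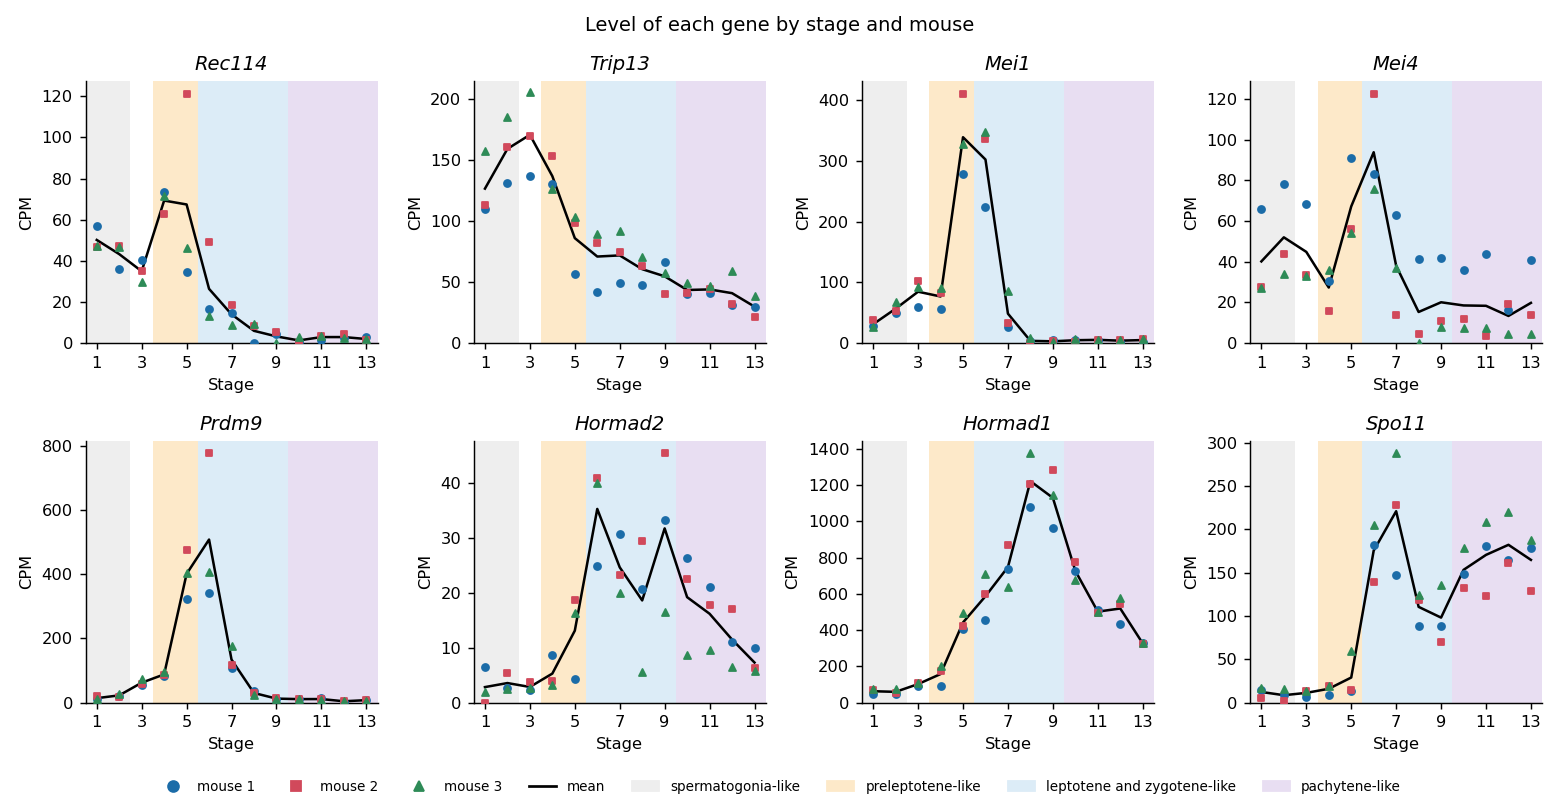
Level of each gene, in CPM on a linear axis, at stages 1 to 13 in each of the 3 mice (points) with the mean (line); shading marks the classes of stages. Rec114 and Trip13 are high at early stages, Mei1, Mei4 and Prdm9 peak at stages 5 and 6, Hormad1 peaks at stage 8, and Spo11 has its highest mean CPM at stage 7 and stays above 120 CPM in every mouse at stages 10 to 13.

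Prdm9 (chr17:15543079-15564354, minus strand, GRCm38) had a narrow peak at the border of preleptotene and leptotene. Its level over the spermatogonia-like stages was 16.8, 18.7 and 18.5 CPM in mice 1, 2 and 3, and over the preleptotene-like stages 202, 281 and 249 CPM. The 2 classes did not overlap, and the log2 fold change was 3.40 ± 0.20 (SE), with an adjusted p of 4.61e-18 (edgeR). At stage 6, where its mean was highest, Prdm9 reached 340, 777 and 405 CPM, and 1 stage later 108, 116 and 177 CPM, so each mouse lost most of the share within a stage. Averaged over stages 6 to 9 it was 124, 234 and 154 CPM, lower than at the preleptotene-like stages in every mouse although the classes overlapped (log2 fold change -1.28 ± 0.16, adjusted p 7.63e-09). By pachytene-like stages 9.21, 8.56 and 7.02 CPM were left (log2 fold change -2.84 ± 0.17, adjusted p 2.91e-19). Stage 5, where Prdm9 and Mei1 came up, also had the highest share of Sertoli cell markers: the 7 markers, all in the table, summed to 168 to 285 CPM there, against stage means of 2.71 to 103 CPM elsewhere. Clu made up 145 CPM and Cldn11 32.6 CPM of this, Sox9 was at 14.1 CPM and Wt1 at 12.2 CPM, and Amh was at 0. Rhox5 was at 3.80 CPM and Gata1 at 2.35 CPM. Clu, Cldn11, Sox9 and Gata1 had their highest means at stage 5, but Wt1 (24.8 CPM) and Rhox5 (11.7 CPM) had theirs at stage 1. Whether Sertoli cells were present at stage 5, or had a part in the levels there, was not tested.

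Spo11 (chr2:172977700-172993576, plus strand) came on after Prdm9 and Mei1. Its level at the spermatogonia-like stages was 11.4, 3.66 and 16.0 CPM in mice 1, 2 and 3, and at the preleptotene-like stages 10.8, 16.8 and 39.6 CPM. It was higher in 2 of 3 mice and the classes overlapped (log2 fold change 0.96 ± 0.31, adjusted p 0.00882). The gate-sorted plate of mouse 3 held 28 Spo11 UMIs in 32 preleptotene-like cells. The index-sorted plate of the same mouse held 0 in 21, which allows up to 16.5 CPM. The call for this small first rise was lost without the gate-sorted plate (0.57, adjusted p 0.385), without mouse 3 (0.57, adjusted p 0.411) and without mouse 2 (0.74, adjusted p 0.0851). At stage 6 Spo11 then stood at 182, 139 and 205 CPM, above the 13.0, 14.0 and 59.7 CPM of stage 5 in every mouse. The relative step was smallest in mouse 3, and this step between single stages was not tested. Over the leptotene and zygotene-like stages Spo11 averaged 127, 139 and 188 CPM, above every preleptotene value (log2 fold change 2.78 ± 0.20, adjusted p 6.02e-15).

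In CPM, Spo11 had 2 phases. After stage 7 (147, 228 and 288 CPM) it was lower in every mouse at stage 9 (88.8, 69.5 and 136 CPM), and at stage 13 it was again higher in every mouse (178, 128 and 188 CPM); these steps between single stages were not tested. Spo11 was also taken per spike-in UMI, relative to its own mean over the stages of a mouse. It stood at 0.410 ± 0.117 in stage 7 cells, 0.305 ± 0.0765 in stage 8, 0.585 ± 0.108 in stage 9 and 3.46 ± 0.514 by stage 13 (SD, n = 3). On that scale stage 9 was above stage 7 in mouse 1 (0.687 against 0.324) and mouse 3 (0.595 against 0.362). In mouse 2 it was below (0.473 against 0.543), and stage 8 was below stage 7 in every mouse. The highest mean moved from stage 7 to stage 12 with CPM divided by the TMM factor and to stage 13 per cell and per spike-in UMI. Over the pachytene-like stages it averaged 168, 136 and 199 CPM, higher than in leptotene and zygotene in 2 of 3 mice with overlapping classes. The fitted log2 fold change of 0.58 ± 0.09 (adjusted p 3.68e-07) uses normalization factors (TMM) that adjust for the composition of the RNA; with library totals alone it was 0.26 (adjusted p 0.0297). Spo11 was the only member called higher here, where the median of all genes was 0.20. Of its 5066 UMIs in staged cells, 14.8% lay in the leptotene and zygotene-like stages.

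Mei1 (chr15:82069996-82126814, plus strand) was high in a narrow window. It stood at 38.8, 45.7 and 46.6 CPM in spermatogonia-like and 167, 247 and 209 CPM in preleptotene-like stages, with no overlap (log2 fold change 1.92 ± 0.22, adjusted p 1.64e-09). Within the latter class the step was from 56.3, 82.5 and 90.8 CPM at stage 4 to 278, 411 and 328 CPM at stage 5. It kept 224, 335 and 347 CPM at stage 6 and then dropped to 26.7, 32.5 and 85.6 CPM at stage 7 and to 2.96, 0 and 7.44 CPM at stage 8. The count of 0 in mouse 2 allows up to 12.7 CPM at the depth of that sum (3 counts). Both later contrasts called it lower, by a log2 fold change of -2.75 ± 0.25 (adjusted p 4.60e-12) into leptotene and zygotene and -1.85 ± 0.38 (adjusted p 2.85e-05) into pachytene. The second of these calls was lost with stages made from even-numbered autosomes (-0.19, adjusted p 0.769) and with finer clusters (-0.96, adjusted p 0.0633).

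Rec114 (chr9:58652850-58743964, minus strand) was the earliest of the set by the mean of the stages weighted by CPM (3.94). By highest mean CPM, Trip13 was earlier, at stage 3. Rec114 was already at 46.3, 47.0 and 46.7 CPM in spermatogonia-like stages and measured 54.2, 92.1 and 58.7 CPM in preleptotene-like stages. Although these values did not overlap, the change missed the threshold (log2 fold change 0.46 ± 0.27, adjusted p 0.153). It was 0.17 without mouse 2 (adjusted p 0.714) and 2.98 with at least 2000 UMIs per well, where it was called (adjusted p 0.0114). Its mean was highest at stage 4 (73.7, 62.9 and 71.3 CPM), while at stage 5 mouse 2 alone reached 121 CPM, so that without mouse 1 or without mouse 3 the highest mean moved to stage 5. In leptotene and zygotene 8.88, 20.4 and 7.80 CPM remained (log2 fold change -2.71 ± 0.32, adjusted p 3.13e-09), and in pachytene 1.76, 2.26 and 2.65 CPM (log2 fold change -1.61 ± 0.38, adjusted p 0.000253). The 3′ end of Rec114 lies under Nptn, a gene on the opposite strand that overlaps it by 5106 bases, and whether the counting used strand is not given in the sources used here, so reads of the pair may not be fully separated.

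Mei4 (chr9:81863670-82206007, plus strand), the partner of REC114, differed widely between the mice. In mouse 1 it stood at 72.0, 60.7, 57.2 and 34.3 CPM in the 4 successive classes, in mouse 2 at 35.6, 35.9, 37.9 and 12.1 CPM, and in mouse 3 at 30.4, 45.0, 30.1 and 5.94 CPM. Mouse 1 was the highest in every class, and its protocol differed too. The mean over mice peaked at stage 6 at 82.9, 123 and 75.7 CPM and was down to 41.5, 4.22 and 0 CPM at stage 8, where the count of 0 in mouse 3 allows up to 5.58 CPM. The first 2 contrasts gave -0.03 ± 0.32 (adjusted p 0.956) and -0.38 ± 0.34 (adjusted p 0.368) on the log2 scale. Into pachytene it fell (log2 fold change -0.80 ± 0.25, adjusted p 0.00396) in all 3 mice. Without mouse 1, Mei4 was called lower already into leptotene and zygotene (-1.38, adjusted p 0.00678), and the pachytene change lost its call (-0.52, adjusted p 0.433), as it did with stages made from even-numbered autosomes (-0.37, adjusted p 0.196).

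Hormad1 (chr3:95559677-95587671, plus strand) gave the most UMIs of the members, 18511 in all wells, and rose in steps. From spermatogonia-like to preleptotene-like stages it went from 46.1, 61.7 and 74.7 to 249, 301 and 349 CPM (log2 fold change 2.09 ± 0.13, adjusted p 5.57e-17). In leptotene and zygotene it reached 809, 989 and 968 CPM (log2 fold change 1.87 ± 0.11, adjusted p 1.97e-18), and its mean was highest at stage 8 (1082, 1206 and 1379 CPM). The mice ran close together, and no 2 classes next to each other overlapped. Pachytene-like cells had 500, 535 and 521 CPM (log2 fold change -0.51 ± 0.07, adjusted p 2.69e-08), down to 330, 323 and 327 CPM at stage 13.

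Hormad2 (chr11:4345814-4441105, minus strand), which marks chromosomes that have not paired, gave 482 UMIs in all wells, the fewest of the 8. Its levels were 4.56, 2.73 and 2.26 CPM in spermatogonia-like and 6.50, 11.3 and 9.76 CPM in preleptotene-like stages, which rest on 19 and 15 UMIs in total. That first rise (log2 fold change 1.30 ± 0.55, adjusted p 0.0492) barely passed: without mouse 1, 2 or 3 it was 1.61, 1.29 and 0.98 with adjusted p of 0.141, 0.139 and 0.293, without the gate-sorted plate it was 0.92 (adjusted p 0.288), and it passed under only 4 of 19 alternatives. The rise into leptotene and zygotene to 27.4, 34.8 and 20.5 CPM was larger (log2 fold change 1.73 ± 0.38, adjusted p 0.000243), with no overlap, but was not called with stages made from even-numbered autosomes (1.37, adjusted p 0.0910). In pachytene 17.1, 15.9 and 7.64 CPM remained (log2 fold change -0.78 ± 0.21, adjusted p 0.000798). The stage of its highest mean was 6, on 3, 5 and 9 UMIs in mice 1, 2 and 3. The value of mouse 1 there, 24.9 CPM, was at its floor of 3 counts. With CPM divided by the TMM factor the highest mean was at stage 9, as it was without mouse 3, which had 40.1 CPM at stage 6 and 16.5 CPM at stage 9. Mice 1 and 2 were each highest at stage 9.

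Trip13 (chr13:73911347-73937784, minus strand) fell into preleptotene and into leptotene and zygotene, where the genes of the HORMADs it removes rose. It was highest at stage 3, at 136, 170 and 205 CPM, and lost share almost throughout, to 29.5, 21.2 and 38.6 CPM at stage 13. Its class means were 120, 137 and 171 CPM in spermatogonia-like and 93.2, 126 and 115 CPM in preleptotene-like stages, lower in every mouse but with overlap (log2 fold change -0.43 ± 0.15, adjusted p 0.0183); this call was kept under 12 of 19 alternatives and lost, for example, without mouse 3 (-0.36, adjusted p 0.134) and with 1 sum per mouse and class (-0.42, adjusted p 0.0616). In leptotene and zygotene it was at 51.2, 64.9 and 77.0 CPM (log2 fold change -0.60 ± 0.16, adjusted p 0.00225), a call lost without mouse 2 (-0.50, adjusted p 0.0517). In pachytene it was at 35.5, 34.6 and 48.3 CPM (log2 fold change -0.38 ± 0.12, adjusted p 0.00652). This last call was kept under 17 of 20 alternatives, and without mouse 3 the change was -0.61 (adjusted p 0.00155). It was lost with the reads table (-0.36, adjusted p 0.0649) and with classes set by the X chromosome (adjusted p 0.0658). On the spike-in scale the change was 1.87, in the other direction. Trip13 starts 26 bases from Brd9 on the opposite strand.

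**Figure D2:**
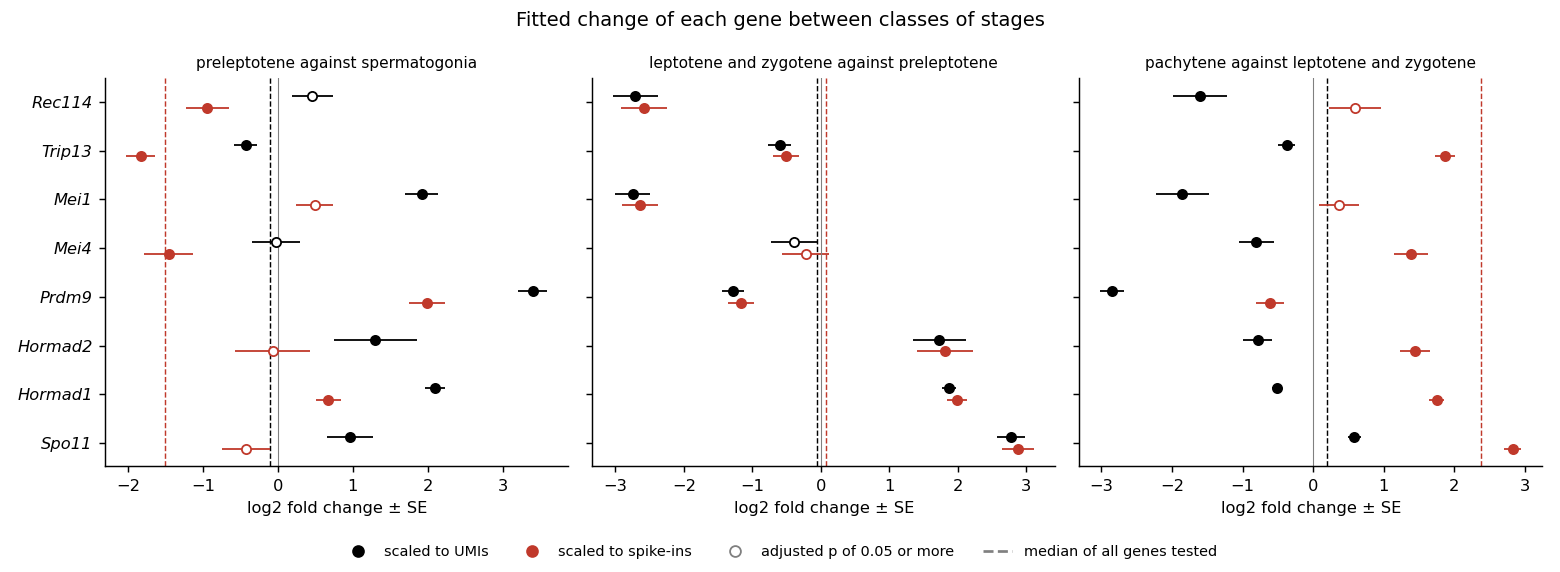
Log2 fold change ± SE of each gene in the 3 contrasts of classes, scaled to UMIs (black) or to ERCC spike-ins (red), with open points where the adjusted p was 0.05 or more; dashed lines are the medians of all 11600 genes. On the spike-in scale all points of the first contrast lie further left and all of the third further right, with the medians at -1.51 and 2.38.

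Scaled to spike-in RNA, as a measure of amount per well, the medians of all genes became -1.51, 0.08 and 2.38 in the 3 contrasts, with 191 genes (1.65%) higher and 9406 (81.1%) lower in the first and 10049 (86.6%) higher and 387 (3.34%) lower in the third. The 3 members lower in the first contrast and the 5 higher in the third moved in the direction of most genes. Prdm9 (1.99) and Hormad1 (0.68) were still called higher in preleptotene-like cells, Mei1 was at 0.49 (adjusted p 0.0587), Hormad2 at -0.07 (adjusted p 0.900) and Spo11 at -0.42 (adjusted p 0.219), and Rec114 (-0.94), Mei4 (-1.46) and Trip13 (-1.83) were called lower. Into leptotene and zygotene the same 7 members were called in the same directions as without spike-ins, where 23.1% of all genes were higher and 20.6% lower. Into pachytene, Spo11 (2.83), Trip13 (1.87), Hormad1 (1.75), Hormad2 (1.44) and Mei4 (1.39) were called higher, and of these Spo11 alone moved by more than the median gene. Prdm9 was the only member still called lower (-0.61), and Rec114 (0.60, adjusted p 0.119) and Mei1 (0.37, adjusted p 0.207) passed in neither direction.

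The counts per 1000 spike-in UMIs show this in each mouse. Spo11 went from 8.59, 2.63 and 3.10 in leptotene and zygotene to 58.2, 16.9 and 23.5 in pachytene, and Hormad1 from 72.0, 24.5 and 19.5 to 162, 64.3 and 58.3. Both were higher in all 3 mice. Prdm9 went from 5.41, 3.50 and 1.90 to 3.16, 1.08 and 0.817, lower in all 3. Mei1 was also lower by class mean in all 3 mice, from 2.51, 1.35 and 1.33 to 1.06, 0.549 and 0.734. This differs in sign from its fitted change, which averages the logs of the stages. By amount, Spo11 was highest at stage 13, 12 and 11 in mice 1, 2 and 3, Hormad1 at stage 10, 10 and 11 and Hormad2 at stage 11 in each. The mice disagreed on Mei4, which was highest at stage 13, 12 and 2. Prdm9 (stages 5, 6 and 5) and Mei1 (stage 5 in each) kept their early peaks, while Trip13 (stage 2 in each) and Rec114 (stages 1, 1 and 2) were highest in spermatogonia-like cells. By CPM, 5 members had their highest mean at a leptotene and zygotene-like stage, and per spike-in UMI or per cell 0 did. Total UMIs per spike-in UMI were lowest at stages 6 and 7 (log2 -1.82 and -1.75 relative to stage 1). The share of all genes with such a peak is not given here, so these counts do not set the members apart.

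**Figure D3:**
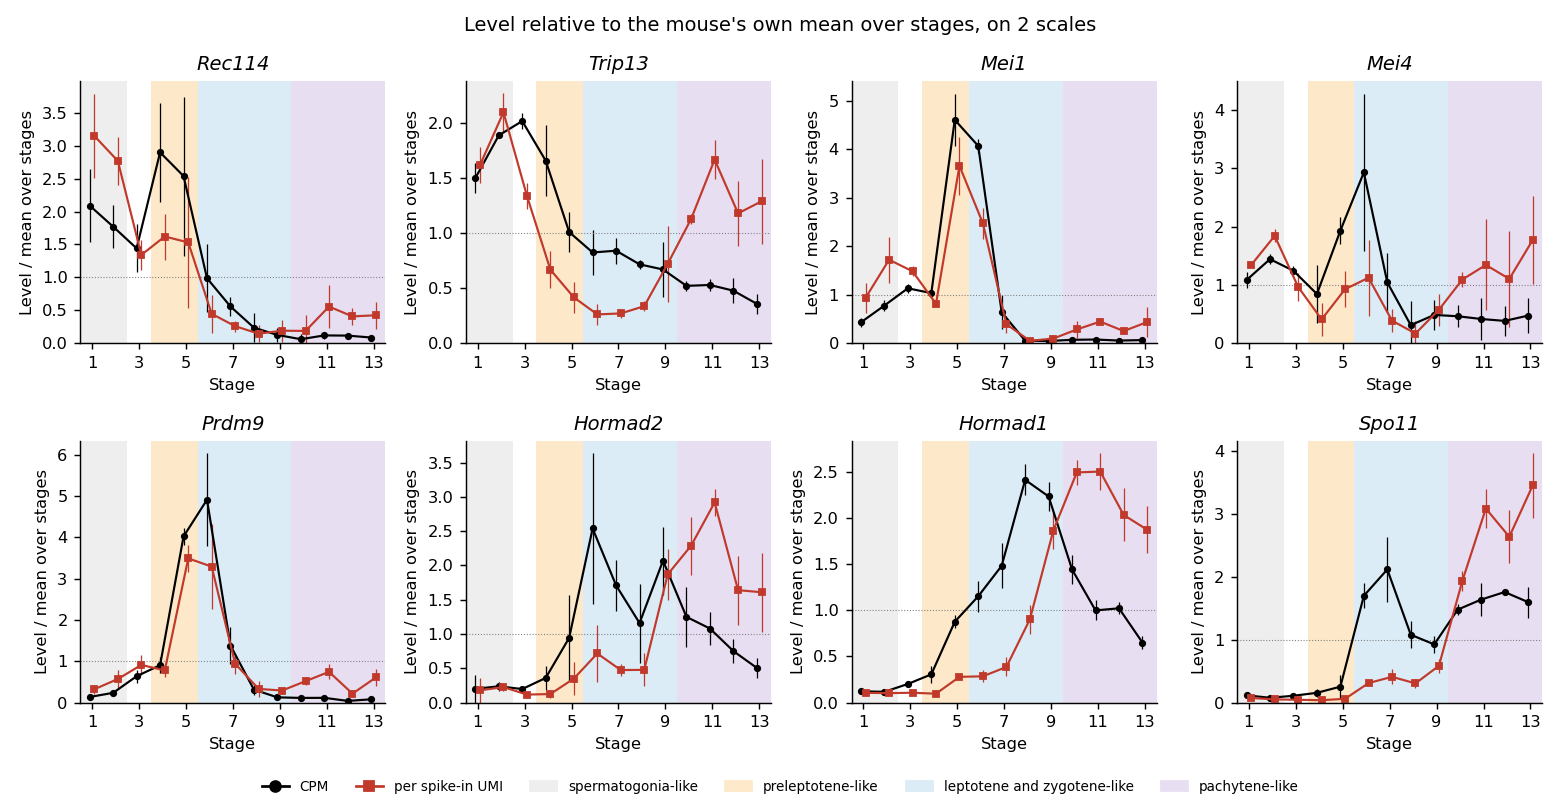
Level of each gene relative to its own mean over stages in that mouse, on linear axes, in CPM (black) and per spike-in UMI (red), as mean ± SD over 3 mice. Mei1 and Prdm9 peak at stages 5 and 6 on both scales, while Spo11, Hormad1 and Hormad2 climb into the pachytene-like stages on the spike-in scale. Mei4 and Trip13 also climb into these stages on that scale, but have their highest means at stage 2. Of all genes, 86.6% were called higher into pachytene on the spike-in scale.

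The order of the members was largely the same in the 3 mice. The mean stage of a gene, which weights each stage number by the CPM there, was 3.94 ± 0.35 for Rec114, 4.99 ± 0.11 for Mei1, 5.15 ± 0.12 for Trip13, 5.54 ± 0.49 for Mei4, 5.60 ± 0.05 for Prdm9, 7.88 ± 0.44 for Hormad2, 8.40 ± 0.11 for Hormad1 and 9.16 ± 0.20 for Spo11 (SD, n = 3). Of 28 pairs of members, 25 stood in the same order in all 3 mice, and the other 3 all involved Mei4 (with Prdm9, Mei1 and Trip13). Among neighbours, Mei1 lay before Trip13 in all 3 mice, by 0.31, 0.08 and 0.07 stages, while Mei4 and Prdm9 changed places between mice. Hormad1 lay 0.31, 0.33 and 0.92 stages after Hormad2, and Spo11 0.87, 0.69 and 0.72 stages after Hormad1. These values describe the order and were not tested.

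**Figure D4:**
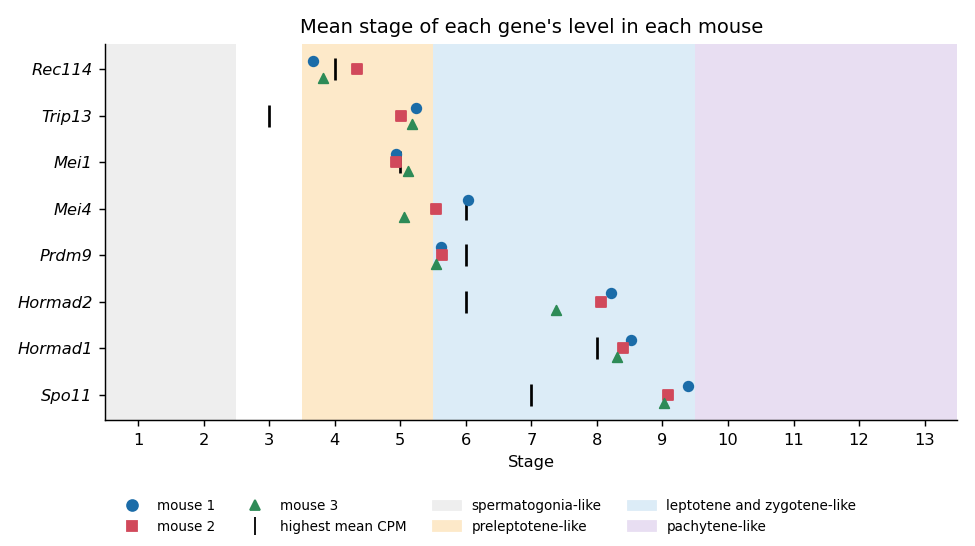
Mean stage of each gene in each of the 3 mice (points), on the axis of stages 1 to 13, with a bar at the stage of the highest mean CPM; shading marks the classes. Rec114 lies earliest at a mean of 3.94 and Spo11 latest at 9.16, and for Spo11, which has 2 phases in CPM, the mean stage lies after the bar at stage 7; that bar is for CPM on library totals and would stand at stage 12 with the TMM factor and at 13 per cell or per spike-in UMI.

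Depth decides how many cells show a member. With each cell thinned to 3000 UMIs, leaving out 101 cells too shallow for it, Prdm9 was seen in 63.3% ± 4.2 of cells at stage 5, 67.8% ± 10.3 at stage 6 and 2.28% ± 0.61 at stage 13 (SD, n = 3). Unthinned, the share at stage 13 was 45.1% ± 16.0, at a median depth of 92963 UMIs against 7641 at stage 6. Mei1 was seen in 59.6% ± 0.3 of thinned cells at stage 5 and 0.981% ± 0.854 at stage 8. Spo11 went from 6.34% ± 5.91 at stage 5 to 35.6% ± 6.2 at stage 6 and 48.4% ± 9.4 at stage 7, was at 23.2% ± 11.7 at stage 9 and at 38.5% ± 5.9 at stage 13. Hormad1 was seen in 96.9% ± 1.6 of thinned cells at stage 8, and Hormad2 in no more than 11.4% ± 4.8 at any stage, the highest being stage 6. At their peaks in CPM, Prdm9, Mei1 and Hormad1 had a UMI in most of the thinned cells.

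The counts of the 4 lists that follow stand beside 21.4% of all genes higher and 27.2% lower in preleptotene, 21.1% and 25.0% in leptotene and zygotene, and 42.2% and 27.1% in pachytene, with medians of all genes of -0.10, -0.05 and 0.20; a count near these shares is no result about its list. Of 8 other genes of break formation, 7 were tested, and 4 were higher and 0 lower in preleptotene, 2 higher and 3 lower in leptotene and zygotene, and 1 higher and 5 lower in pachytene, with median log2 fold changes of 0.62, -0.26 and -1.35. The 2 of 7 higher in leptotene and zygotene are near the share of all genes (21.1%). Gm960, the mouse symbol of the SPO11 partner TOPOVIBL, rose in preleptotene (1.15 ± 0.44, adjusted p 0.0281) and in leptotene and zygotene (1.22 ± 0.35, adjusted p 0.00405) and fell in pachytene (-2.17 ± 0.25, adjusted p 2.25e-10). Its first call was lost without mouse 1, 2 or 3 (0.91, 1.31 and 1.37) and without the gate-sorted plate (1.18), and its second without mouse 2 or 3 (1.03 and 1.11). Atm, the kinase that limits the number of breaks, fell from 335 ± 37 CPM in preleptotene to 170 ± 17 CPM (-1.92 ± 0.13, adjusted p 4.87e-16). Ewsr1, which binds PRDM9, rose in pachytene by 0.33 ± 0.07 (adjusted p 4.82e-05), a call lost without mouse 2 or 3 (0.19 and 0.10).

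Genes that repair the breaks (22 genes, 20 tested) were 10 higher and 1 lower in preleptotene, 5 and 9 in leptotene and zygotene, and 7 and 9 in pachytene, with medians of 0.51, -0.27 and -0.17. The 5 of 20 higher in leptotene and zygotene and the 7 of 20 higher in pachytene are near the shares of all genes (21.1% and 42.2%). Msh5, whose product stabilises recombination intermediates, rose from 5.46 ± 1.10 to 51.3 ± 3.3 CPM in preleptotene (2.87 ± 0.38, adjusted p 2.50e-08), and its partner Msh4 rose in leptotene and zygotene (2.28 ± 0.25, adjusted p 2.58e-10). Rad50, of the complex that processes break ends, fell in preleptotene (-0.52 ± 0.14, adjusted p 0.00152; -0.34 and not called without mouse 1). Exo1, a nuclease that resects ends, fell in leptotene and zygotene (-1.85 ± 0.19, adjusted p 1.40e-10). In pachytene, Rpa1, which coats single-stranded DNA, rose (1.88 ± 0.15, adjusted p 1.96e-15), and Tex15, needed to load recombinases, fell from 1060 ± 177 to 33.2 ± 14.5 CPM (-3.70 ± 0.14, adjusted p 2.61e-26).

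All 11 genes of the chromosome axis and synaptonemal complex were called higher in preleptotene (median 1.28), 5 higher and 1 lower in leptotene and zygotene (median 0.08), and 2 higher and 9 lower in pachytene (median -0.49), where all genes stood at 21.4% higher, 21.1% higher and 25.0% lower, and 42.2% higher and 27.1% lower. Sycp3, an axis protein beside the HORMADs, rose from 966 ± 110 to 3408 ± 581 CPM in leptotene and zygotene (2.06 ± 0.09, adjusted p 1.11e-22), where Smc3, a cohesin subunit, fell (-0.88 ± 0.12, adjusted p 2.73e-08). Syce1, of the central element, rose in pachytene (1.15 ± 0.07, adjusted p 2.76e-18). Rad21l, a meiotic cohesin, had the largest changes in both directions, up in preleptotene (2.67 ± 1.00, adjusted p 0.0254) and down in pachytene (-4.35 ± 0.80, adjusted p 7.15e-06), but stood at only 13.1 ± 10.3 CPM in preleptotene. Its rise was lost without mouse 1 (1.72) or mouse 3 (2.70) and its fall without mouse 2 (-4.00).

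Of 8 partners of TRIP13 and checkpoint kinases, 2 were higher and 2 lower in preleptotene, 3 and 2 in leptotene and zygotene, and 2 and 4 in pachytene, with medians of 0.09, -0.07 and -0.36. The counts in preleptotene are near the shares of all genes (21.4% and 27.2%), as is that of genes lower in leptotene and zygotene (25.0%). Atr, the kinase that acts on unpaired axes, rose from 197 ± 24 to 539 ± 51 CPM (1.27 ± 0.10, adjusted p 6.41e-14) and then to 1075 ± 90 CPM (1.24 ± 0.09, adjusted p 2.07e-15). Chek2, a kinase of the break checkpoint, fell in preleptotene (-0.84 ± 0.32, adjusted p 0.0278), a call lost without mouse 2 or 3 (-0.91 and -0.64), and its mice differed widely (58.1 ± 53.0 CPM). Chek1 fell in leptotene and zygotene (-1.87 ± 0.24, adjusted p 1.28e-08). In pachytene Mad2l2, a HORMA-domain protein that TRIP13 can act on, rose (2.61 ± 0.13, adjusted p 1.67e-21) and Brca1 fell (-1.45 ± 0.15, adjusted p 2.79e-11).

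For each member, the genes whose levels ran most alike were ranked by Pearson's correlation of log2(CPM + 10) over the 39 sums, which share mice and stages; the values are descriptions. Hormad1 ran closest to Ly6k (0.976), Erlec1 and Zfp654, and Mei1 to Kif23 (0.971), Rab6a and Ecsit. Prdm9 ran closest to Kdm6a (0.961), Ugt8a and Stk38, and Trip13 to Srpr (0.946), Ctsb and Ccna2. Rec114 ran closest to Fermt2 (0.940), Hsd17b10 and Wrnip1, and Spo11 to Ccdc62 (0.933), Pet112 and Itgb3bp. Mei4 ran closest to Ccdc36 (0.894), the gene of its axis partner IHO1, then Adarb1 and Brip1, and Hormad2 to Ccdc18 (0.843), Tia1 and Syce3. Differences between mice were not removed before these correlations, and those of Mei4 were wide. Among the members themselves, Prdm9 and Mei1 stood at 0.893, Rec114 and Trip13 at 0.810, and Spo11 and Hormad1 at 0.804, while Spo11 and Rec114 stood at -0.797.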

How the data were processed

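The authors deposited UMI counts and read counts for each well, and estimated counts of transcripts, in which the UMI counts are corrected for collisions. Reads were aligned with BWA 0.7.10 to mm10, per the submitters' processing notes; the counting tool and annotation are not given in the sources used here. The members and gene lists were chosen with earlier results of these data known.

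Wells with at least 1000 UMIs were kept. Genes of odd-numbered autosomes, without the members and lists, gave 1500 variable genes that were aligned between mice with Seurat 5.3.0 anchors and clustered in scanpy 1.11.5 (15 components, Leiden resolution 1) into 17 clusters, of which 13 were stages, ordered by diffusion pseudotime. Staging was run in 3 versions; the filter on marker-rich wells and the rule that names stages were set after clusters had been seen, and the stages come from other genes of the same cells. The remaining 4 clusters (218 cells) had low median UMI counts and entered no contrast.

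UMI counts were summed per mouse and stage and fitted in edgeR 4.0.16 (R 4.3.3; TMM factors, filterByExpr, stage and mouse as terms, quasi-likelihood tests, Benjamini-Hochberg over 11600 genes). The mouse is the block because each animal gives every stage. The p-values rest on the spread of 39 sums from 3 mice. Printed CPM use library totals, without TMM. Depth was 16682671, 5866174 and 18032562 UMIs in mice 1, 2 and 3; floors of 3 counts cover counting error only. The edgeR fit was tested on simulated sums, in the contrast of leptotene and zygotene-like with preleptotene-like stages. Positions are from GENCODE vM21 (GRCm38, the assembly of mm10). Named genes are the 8 members, the gene with the largest change called in each direction in each list and contrast, and the 3 genes most like each member among those with a mean of at least 20 CPM. Alternatives were the transcripts table (rounded) and reads table, median-ratio size factors, spike-ins or totals as library size, DESeq2 1.42.0, no low-count filter, no replicate block, each mouse or the gate-sorted plate left out, and other settings for wells, sums, staging, stage names and classes.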

Additional observations from a re-analysis of the deposited data

Results flagged for a closer look

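UMIs of the members were also counted in wells that entered no comparison. In the 472 wells with fewer than 1000 UMIs there were 59 UMIs of Hormad1, 17 of Spo11, 16 of Trip13, 9 of Mei1, 6 of Mei4 and 5 of Prdm9, all above the 3 counts that a count of 0 allows. As shares of these wells, in the same order, that was 329, 94.7, 89.1, 50.1, 33.4 and 27.9 CPM. The median was 342 UMIs per well, and any bearing on low levels in staged cells was not tested. In the 4 clusters that were no stage (218 cells) there were 169 UMIs of Hormad1, 63 of Spo11, 44 of Trip13, 44 of Mei1, 33 of Prdm9, 31 of Mei4 and 7 of Rec114.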

How the results depend on the processing

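Over the members' 3 contrasts, 405 of 464 values kept direction and side of the threshold, 38 lost and 6 gained a call, and 15 changed sign; the causes were not tested beyond the fewer samples or the other scale that a setting brings. The call that Mei4 differs between stages was lost with no replicate block (adjusted p 0.241). The calls of Prdm9 and Hormad1 into preleptotene and of Spo11 into leptotene and zygotene were kept under all 19 alternatives.

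The count of members higher in preleptotene was 3 with the reads table, with stages from even-numbered autosomes and without the gate-sorted plate, 2 on the spike-in scale, 3 to 4 without each mouse in turn, 6 at 2000 UMIs per well, and 4 or 5 under the other alternatives. The count lower there was 0 with the reads table, with no replicate block, at 2000 UMIs per well, with even-numbered autosomes, with the first naming rule (stage 3 called preleptotene) and with 1 sum per mouse and class, 3 on the spike-in scale, and 0 to 1 without each mouse. Into pachytene, 5 members were higher and 1 lower on the spike-in scale, and 4 were lower with classes set by the X chromosome. The count of members highest in leptotene and zygotene was 0 per cell and per spike-in UMI.

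On the spike-in scale the sign changed in preleptotene for Spo11 (-0.42), Rec114 (-0.94), Hormad2 (-0.070), Gm960 (-0.15), Zcwpw1 (-0.47), Atr (-0.16) and Topbp1 (-0.36), and in pachytene for Mei1 (0.37), Mei4 (1.39), Rec114 (0.60), Hormad1 (1.75), Hormad2 (1.44), Trip13 (1.87), Gm960 (0.086), Hells (0.57), Mnd1 (0.33), Mad2l1 (1.31) and Brca1 (0.79). Mei4 in preleptotene, at -0.03, was 0.20 with the reads table, 0.21 without mouse 1, 0.53 at 2000 UMIs, 0.64 with even-numbered autosomes, 0.36 with marker-rich wells kept and 0.049 with 1 sum per class. Rad21l in preleptotene was -2.88 with even-numbered autosomes, and Stag3 in pachytene -0.063 with library totals alone. Of all genes, 1876 were then higher and 3388 lower into leptotene and zygotene, and 3777 and 4151 into pachytene, in place of 2450 and 2902, and 4890 and 3139. On the spike-in scale 2679 were higher and 2392 lower into leptotene and zygotene. Without TMM the medians of all genes were -0.08, -0.18 and -0.10. Depth limits Hormad2 and Rec114 in particular, with 474 and 568 UMIs in staged cells.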
